A study of Mus musculus with 477 samples.

Results

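Decorin (*Dcn*) and 6 other genes of the small leucine-rich proteoglycan (SLRP) family, biglycan (*Bgn*), lumican (*Lum*), fibromodulin (*Fmod*), osteoglycin (*Ogn*), asporin (*Aspn*) and *Prelp*, were followed across single mammary luminal and tumor cells of the mouse. These are 7 of the 21004 genes in the count table. They were taken by name as a protein family, and *Dcn* was picked because earlier results of these data showed high levels in virgin luminal cells and in a tumor, so the *Dcn* values below are a description and carry no p-value.

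The SLRPs are secreted core proteins built of leucine-rich repeats, and most of them carry chondroitin, dermatan or keratan sulfate chains. In the extracellular matrix they bind collagen fibrils and set how the fibrils assemble. Several also bind growth factors and cell surface receptors, and decorin is best known for binding TGF-beta and for acting on the receptors EGFR and MET. In the mammary gland, the fibroblasts of the stroma are the textbook source of decorin and lumican. The luminal epithelium holds hormone-sensing cells, marked by the estrogen, progesterone and prolactin receptors (*Esr1*, *Pgr*, *Prlr*), and secretory cells, marked by *Elf5*, *Kit* and the caseins.

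The study captured cells on Fluidigm C1 chips, in which each cell is lysed in a chamber of its own and full-length cDNA is made, to compare luminal and tumor cells of *Brca1* mutant mice. The labels placed 477 cells in 10 groups from 11 female mice of a mixed C57BL/6 and 129/Sv background. In the group names, v is virgin, p is pregnant (day 12.5), L is luminal, T is tumor, Br is MMTV-Cre with *Brca1* fl/fl, 53 is MMTV-Cre with *Trp53* fl/+, and Br53 carries both, the *Trp53* genotype being that of the study's methods, while a supplementary legend on flow cytometry gives *Trp53* fl/fl for luminal mice. The groups were vBrL (35 cells), vBr53L (39), v53L (40), pBrL (71 cells of a mouse called pBrL-1 here and 38 of pBrL-2), pBr53L (53), p53L (36), BrT1 (47), BrT2 (37), Br53T1 (30) and Br53T2 (51). Apart from pBrL, each group was 1 mouse, and all luminal mice, aged 3 to 4 months, also carried a ROSA mT/mG reporter. No mouse was wild type for both genes, and the MMTV promoter drives Cre in mammary epithelium, so the luminal gate (viable, CD24 high, CD29 low, membrane GFP positive) kept cells in which Cre had acted. The tumors were taken at about 1 cm, and their gate asked only for viable CD24 positive cells. Blood and endothelial cells had been depleted from all samples and red cells had been lysed.

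Depth ranged from 170209 to 3550564 reads per cell and from 40.3 to 116 M reads per mouse. Values are CPM, the reads of the gene per 1000000 reads of the cell, or of all cells of the mouse summed. A cell at 10 CPM or more is said to carry a gene. The range of summed *Brca1* was 2.03 to 31.8 CPM over 5 *Brca1*-deficient luminal mice, 5.21 to 6.99 over the 2 luminal mice with mutant *Trp53* only and 1.70 to 57.2 over the tumors, so its total count did not separate the genotypes. Reads from exons outside the deleted part are in these counts, so they do not check the deletion. The general luminal markers (*Krt8*, *Krt18*, *Krt19*, *Epcam*, *Cdh1*, *Cldn3*) summed to at least 7404 CPM in every luminal mouse, 4319 to 6135 in BrT2, Br53T1 and Br53T2, and 633 in BrT1. The fibroblast markers (10 genes) summed to at most 0.873 CPM in the luminal mice and to 682 in BrT1.

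3 pairs of members are neighbours in the mouse genome (GRCm38, also named mm10, with GENCODE vM21 genes). *Dcn* (chr10:97479609-97518143, plus strand) and *Lum* (chr10:97565128-97572703, plus strand) lie 46985 bases apart. *Prelp* (chr1:133910304-133921414, minus strand) and *Fmod* (chr1:134037254-134048277, plus strand) lie 116 kb apart. *Aspn* (chr13:49544443-49567565, plus strand) and *Ogn* (chr13:49608046-49624501, plus strand) lie 40.5 kb apart, and *Bgn* stands alone on the X chromosome (chrX:73483602-73495933, plus strand). *Dcn* was the most abundant member while *Lum* had 0 reads in all 477 cells, and *Prelp* had reads in 13 cells of virgin mice, in which *Fmod* had none.

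The promoters of *Bgn*, *Prelp* and *Fmod* are printed because 3 cells of the tumor Br53T2 carried all 3 genes, as described further on. In that tumor *Bgn* was carried by 17 cells, *Prelp* by 12 and *Fmod* by 3, and 9 cells carried both *Bgn* and *Prelp*. Each sequence is the 250 bases before the gene's start in RefSeq (build GRCm38.p6), read 5′ to 3′ on the strand of the gene. Capitals mark matches to a short motif on either strand.
Bgn promoter, chrX:73483351-73483600, plus strand: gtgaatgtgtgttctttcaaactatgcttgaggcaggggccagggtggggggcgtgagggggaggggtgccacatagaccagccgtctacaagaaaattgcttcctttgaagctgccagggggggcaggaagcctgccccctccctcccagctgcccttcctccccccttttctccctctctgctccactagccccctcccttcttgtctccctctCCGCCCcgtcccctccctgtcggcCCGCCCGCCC
Prelp promoter, chr1:133921402-133921651, minus strand: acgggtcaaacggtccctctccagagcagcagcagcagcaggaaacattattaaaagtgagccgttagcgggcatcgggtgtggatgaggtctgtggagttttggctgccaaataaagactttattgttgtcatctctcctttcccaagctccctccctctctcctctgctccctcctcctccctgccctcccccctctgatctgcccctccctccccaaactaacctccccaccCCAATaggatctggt
Fmod promoter, chr1:134037004-134037253, plus strand: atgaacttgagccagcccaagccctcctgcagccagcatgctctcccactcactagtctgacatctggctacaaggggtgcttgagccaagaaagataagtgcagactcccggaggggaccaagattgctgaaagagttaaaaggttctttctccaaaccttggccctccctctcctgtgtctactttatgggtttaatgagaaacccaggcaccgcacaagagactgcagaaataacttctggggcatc
The motifs searched were the TATA box (TATAAA), the GC box (GGGCGG), the CCAAT box (CCAAT) and the AP-1 site (TGANTCA). The *Bgn* window held 3 GC boxes, all written here as the reverse complement CCGCCC, at positions -34, -10 and -6, where -1 is the base before the start. The last pair overlap each other. The *Prelp* window held a CCAAT box at -15, and the *Fmod* window held none of these motifs. No motif was shared by the 3 windows. Among 32526 windows of the same length, 33% held a GC box, 33.8% a CCAAT box, 12.3% a TATA box and 6.73% an AP-1 site. The GC content was 64.4% for *Bgn*, 55.6% for *Prelp* and 51.2% for *Fmod*, beside a median of 52.4% over all windows.

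*Dcn* was the leading SLRP of virgin luminal cells and of the tumor BrT1, and was close to absent in pregnant mice. Summed over cells, the virgin mice vBrL, vBr53L and v53L reached 711, 579 and 176 CPM (489 ± 279, SD, n = 3 mice). The pregnant mice pBrL-1, pBrL-2, pBr53L and p53L had 25.4, 0.026, 0.367 and 0.851 CPM. Among the tumors, BrT1 had 4356 CPM and Br53T2 had 87.5, whereas BrT2 and Br53T1 had no read. The virgin and pregnant ranges did not overlap, and the tumors lay on both sides of the virgin mice. These sums mix the number of cells with a transcript and the amount per cell, and from the sums alone fewer carrying cells and less RNA per cell cannot be told apart. Cell type markers moved with stage. The 8 hormone-sensing markers summed to 864 to 5090 CPM in the virgin and 245 to 333 in the pregnant mice, and the 8 secretory markers to 17857 to 28130 and 52519 to 75115 CPM. In edgeR none of these 16 genes was called for pregnancy, beside 0.0159% of all genes, with medians of -3.63 and 1.75 on the log2 scale beside 0.12 over all genes. The part of these shifts in the *Dcn* values was not tested.

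Within chips, the order of the stages was the same. Chip SC7 held vBr53L at 579 CPM and pBr53L at 0.367, and chip SC9 held v53L at 176 and p53L at 0.851. The cells of vBrL and of pBrL-1 and pBrL-2 were on different chips, so that stage and chip cannot be told apart for the Br genotype. In the fit of all genes, the log2 fold change of *Dcn* was -7.77 for pregnant against virgin mice with genotype as a covariate. No SE or test is given for it, since *Dcn* was chosen on these values.

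**Figure D1:**
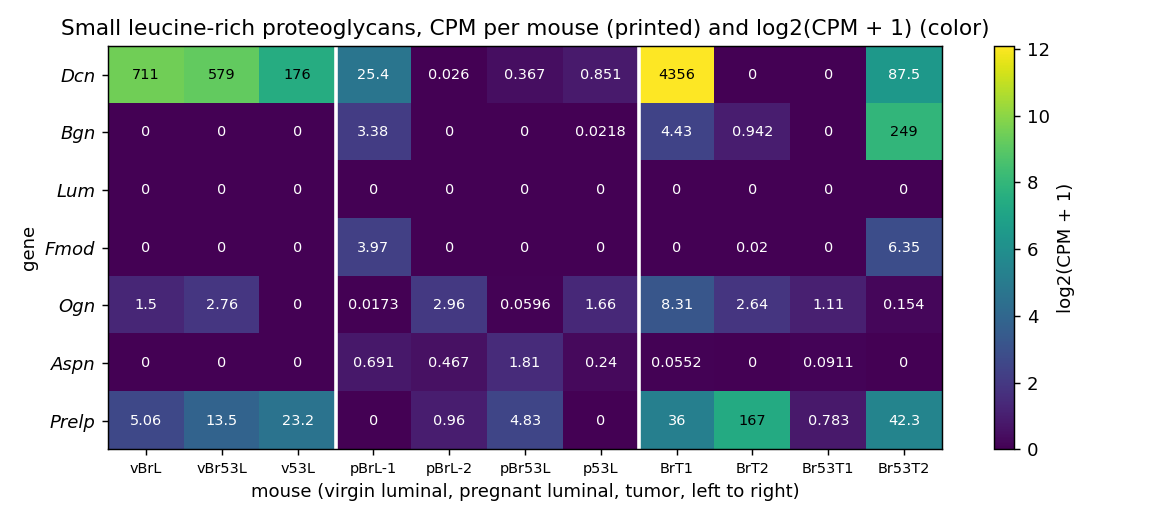
Summed CPM of the 7 SLRP genes (rows) in the 11 mice (columns, virgin luminal, pregnant luminal and tumor from left to right), with the CPM printed in each field and log2(CPM + 1) as color. *Dcn* is high in the 3 virgin mice and in BrT1 (4356 CPM), *Bgn* in Br53T2 (249 CPM) and *Prelp* in BrT2 (167 CPM), while *Lum* is 0 in every mouse.

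Most of the virgin *Dcn* reads came from a few cells. In vBrL, 9 of 35 cells carried *Dcn* (25.7%, 95% exact binomial interval 12.5 to 43.3), in vBr53L 25 of 39 (64.1%, 47.2 to 78.8) and in v53L 12 of 40 (30.0%, 16.6 to 46.5). These intervals cover counting error only. In all 3 mice a gap separated a small set of high cells from the rest. In vBrL, 7 cells had 315 to 12209 CPM and the next cell had 13.7. In vBr53L, 6 cells had 546 to 7028 CPM and the next had 80.1. In v53L, 12 cells had 104.96 to 1908 CPM and the other 28 had no read. These 25 cells at 100 CPM or more held 99.7%, 97.5% and 100% of the *Dcn* reads of their mice. The highest cell alone held 51.0%, 46.2% and 30.8% of the reads of vBrL, vBr53L and v53L, and the summed level without it was 359, 324 and 125 CPM. *Dcn* therefore stayed above every pregnant mouse without the highest cell of each virgin mouse.

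The 7 high cells of vBrL had 12209, 6337, 3345, 2676, 675, 388 and 315 CPM of *Dcn*. The 6 high cells of vBr53L had 7028, 3337, 2698, 1708, 917 and 546 CPM. The 12 high cells of v53L ran from 104.96 through a median of 304 to 1908 CPM. The high cells of v53L thus overlapped those of the other mice only in the lower part of their range. The number of high cells was larger in v53L while the level per cell was lower, and with 1 virgin mouse per genotype this difference was not tested.

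A low level of *Dcn* lay beneath the high cells in some virgin mice. In vBrL 25 further cells had 1 or more reads but stayed under 10 CPM, and in vBr53L 19 cells lay between 10 and 100 CPM. Pooled over the cells under 100 CPM, *Dcn* had 2.75 CPM for vBrL and 17.8 for vBr53L, and no read for v53L. The pregnant cells on the same chips had a *Dcn* read in 1 of 53 cells (pBr53L, chip of vBr53L) and 1 of 36 (p53L, chip of v53L). After thinning each cell to 100000 reads, 11, 26 and 12 cells of vBrL, vBr53L and v53L still had a *Dcn* read. Whether free RNA of the high cells gave the low reads was not tested.

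**Figure D2:**
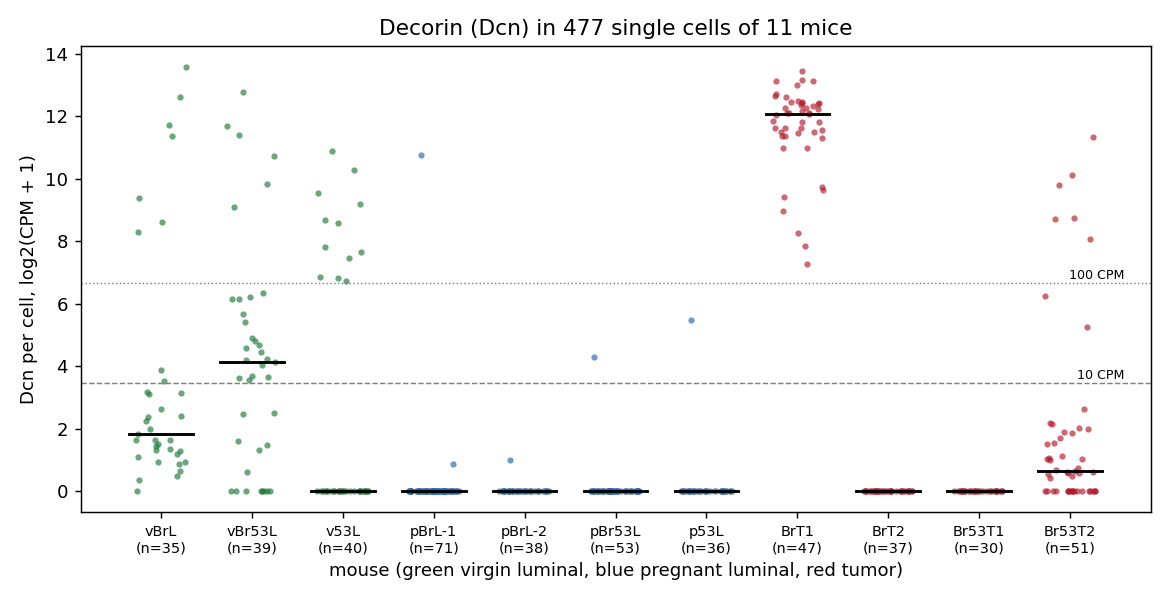
*Dcn* in each of the 477 cells as log2(CPM + 1), with 1 column of points per mouse, a black bar at the median and lines at 10 and 100 CPM. In vBrL, vBr53L and v53L 7, 6 and 12 cells lie above the 100 CPM line, in BrT1 all 47 cells do, and 1 cell does among the 198 cells of pregnant mice.

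The cells with high *Dcn* carried the markers of the luminal epithelium, and most of them also carried markers of hormone-sensing cells. *Krt18* and *Epcam*, an epithelial keratin and an adhesion protein, were at 10 CPM or more in all 25 high cells and in all 89 other virgin cells. *Krt8* was carried by 25 of 25 and 87 of 89 cells, and the cadherin *Cdh1* by 25 and 82. *Prlr*, the prolactin receptor, was carried by 24 of the 25 high cells and by 62 of the 89 others, with medians of 4050 and 51.7 CPM. *Esr1* was carried by 21 of 25 against 29 of 89 cells, and *Pgr* by 19 against 9. By mouse, *Esr1* was carried by 7 of 7, 4 of 6 and 10 of 12 high cells of vBrL, vBr53L and v53L, and *Pgr* by 5 of 7, 2 of 6 and 12 of 12. *Cited1*, a transcriptional coregulator, was carried by 22 against 16 cells, and *Areg*, the estrogen-induced EGF receptor ligand amphiregulin, by 21 against 16. *Wnt4*, a secreted factor downstream of progesterone, was carried by 18 against 16 cells. *Foxa1* (7 against 8 cells) and *Tnfsf11*, which encodes RANKL (9 against 8), were found in fewer of the high cells. These counts are descriptions of cells pooled from 3 mice, chosen on their *Dcn* level.

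Summed over the 8 hormone-sensing markers, the high cells had a median of 5983 CPM and the other virgin cells 117. For the 8 secretory markers, the medians were 361 and 18769 CPM. The gap was wide in vBrL (583 against 16362 CPM) and v53L (171 against 34408), but in vBr53L the medians were 11169 and 16121 CPM, and 4 of its 6 high cells had 1000 CPM or more of *Csn2*. *Csn2*, the beta-casein gene, had medians of 43.9 and 7097 CPM, and *Csn3* 146 and 9021 CPM. *Elf5*, the transcription factor of secretory cells, was carried by 5 of 25 and 38 of 89 cells, and *Kit* by 9 and 49. Caseins were not absent from the high cells, since 16 of the 25 carried *Csn2*. The high cell that did not carry *Prlr* was a cell of vBr53L with 546 CPM of *Dcn*, 1.26 CPM of *Prlr*, no read of *Esr1* or *Pgr* and 13083 CPM of *Csn3*.

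The markers of fibroblasts and of basal cells were at or near 0 in the same 25 cells. *Col1a1*, *Col1a2*, *Col3a1*, *Pdgfrb*, *Thy1*, *Dpt*, *Mfap5*, *Pi16* and *Fap* were carried by 0 of 25 cells, and *Pdgfra*, a receptor of fibroblasts, by 1 cell at 22.2 CPM. The summed fibroblast list was at most 22.2 CPM in these cells and at most 6.32 CPM in the other 89. The basal list (9 genes, with *Krt5*, *Krt14* and *Acta2*) was at most 6.23 CPM, and *Vim* and *Fn1* were carried by 0 of 25 cells. The collagens and fibril proteins to which SLRPs bind had a median of 0 CPM and a highest value of 462 CPM. The red cell list was higher beside *Dcn*, with a median of 9.23 CPM and up to 821 in the high cells against 0 and up to 77 in the others. Of that list *Hba-a1*, an alpha-globin gene, was carried by 12 of 25 against 5 of 89 cells and *Hbb-bs* by none in either set. The part of red cell RNA in the *Dcn* values was not tested. The high cells had 3148 to 6885 detected genes, with medians of 5707, 5984 and 3894 in vBrL, vBr53L and v53L, against 4545, 3814 and 3444 in the cells under 10 CPM.

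**Figure D3:**
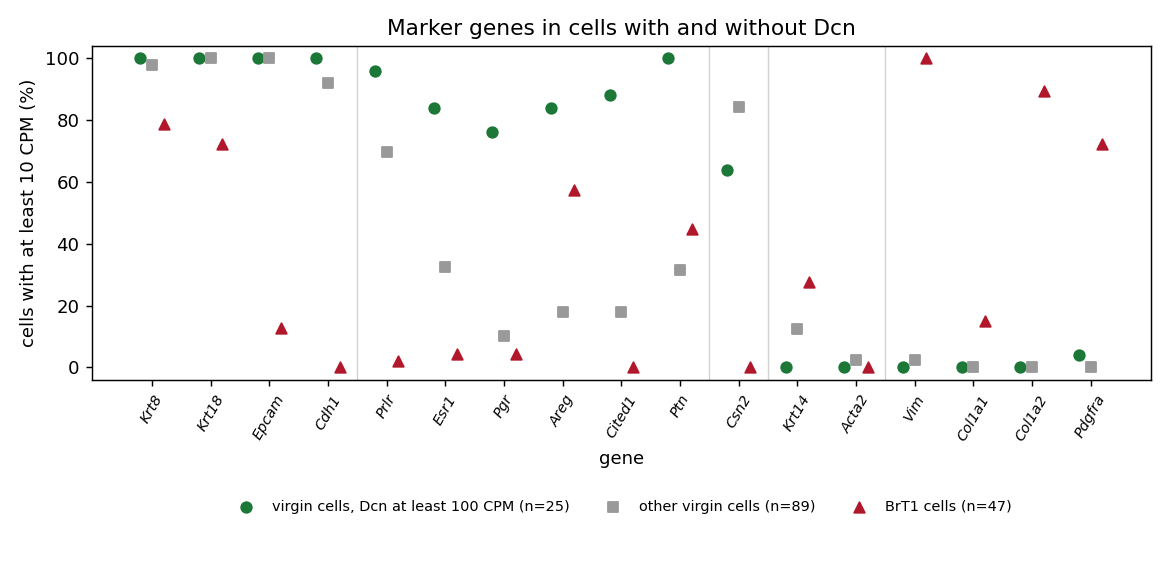
Percent of cells with at least 10 CPM (vertical axis) for 17 marker genes in the 25 virgin cells with *Dcn* of at least 100 CPM (circles), the 89 other virgin cells (squares) and the 47 cells of BrT1 (triangles). *Prlr*, *Pgr* and *Ptn* are carried by 24, 19 and 25 of the 25 high virgin cells, whereas *Vim* is carried by all BrT1 cells and by none of the 25.

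Seen from the hormone-sensing side, *Dcn* marked some of these cells. A *Prlr* level of 1000 CPM, chosen after the values were seen, was reached by 10 cells of vBrL, 6 of vBr53L and 25 of v53L, and 7, 6 and 12 of them carried *Dcn*. As shares these were 70% (34.8 to 93.3), 100% (54.1 to 100) and 48% (27.8 to 68.7). Pooled over these cells *Dcn* had 2668, 3030 and 277 CPM. Only 1 of the 25 high *Dcn* cells, the cell of vBr53L that did not carry *Prlr*, lay outside them. *Prlr* itself was called in no comparison here, and in the summed values it was highest in v53L, which had the lowest *Dcn* of the virgin mice.

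**Figure D4:**
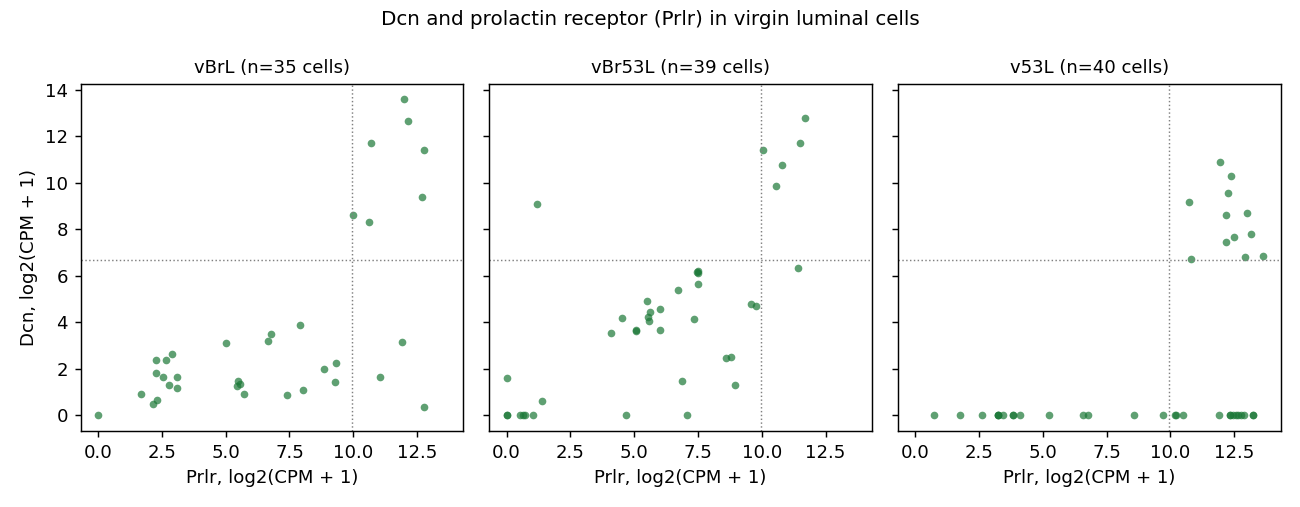
*Dcn* (vertical axis) against *Prlr* (horizontal axis) in the 114 virgin cells, both as log2(CPM + 1), with 1 panel per mouse and dotted lines at 100 CPM of *Dcn* and 1000 CPM of *Prlr*. Of the 25 cells above the *Dcn* line, 24 lie to the right of the *Prlr* line, and in v53L 12 of the 25 cells to its right carry *Dcn*.

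In the pregnant mice, the cells with *Esr1* did not carry *Dcn*, and cells with high *Prlr* or with *Pgr* were few. *Prlr* reached 1000 CPM in 0, 1, 1 and 1 cells of pBrL-1, pBrL-2, pBr53L and p53L, and the cell of pBr53L carried *Dcn*. *Pgr* was carried by 6, 3 and 19 cells of the virgin mice vBrL, vBr53L and v53L, 5, 3 and 12 of them with *Dcn*, and by 0, 1, 1 and 1 cells of the pregnant mice, those of pBr53L and p53L with *Dcn*. *Esr1* was at 10 CPM or more in 50 virgin cells, 30 of which carried *Dcn*, and in 32 pregnant cells, 0 of which did. By mouse, *Dcn* was carried by 7 of 12 *Esr1* cells in vBrL, 13 of 13 in vBr53L and 10 of 25 in v53L, and at 100 CPM or more by 7, 4 and 10 of them. By secretory markers, *Dcn* was carried in vBr53L by 23 of 36 cells with 1000 CPM or more of *Csn2* (63.9%) and 13 of 19 with *Elf5* (68.4%). These shares were near the 64.1% of all its cells. In vBrL these counts were 2 of 21 and 2 of 17, and in v53L 0 of 18 and 0 of 7. In vBr53L 36 of 39 cells had this level of *Csn2*, so it did not set secretory cells apart there. The pregnant mice pBrL-1, pBrL-2, pBr53L and p53L had 10, 10, 9 and 3 cells with *Esr1*. Their count of 0 with *Dcn* allows a share of up to 30% in pBrL-1 and pBrL-2 and up to 33.3% in pBr53L. The 3 *Esr1* cells of p53L set no limit. The median *Esr1* level of the *Esr1* cells was 165 CPM in virgin and 101.4 CPM in pregnant mice. Their median *Prlr* was 3591 against 73.3 CPM, their median *Ptn* 3701 against 0 CPM and their median *Csn2* 181 against 46456 CPM, so the *Esr1* cells of the stages differed in more than *Dcn*.

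In all, 3 of 198 pregnant cells carried *Dcn*. The cell of pBr53L had 18.8 CPM of *Dcn* with 1200 CPM of *Prlr*, 143 of *Pgr* and 882 of *Cited1*. The cell of p53L had 43.4 CPM with 541 CPM of *Prlr*, 16.7 of *Pgr* and 861 of *Cited1*. Both carried *Prlr*, *Pgr* and *Cited1* like most virgin high cells but stayed under 10 CPM for *Esr1* (0 and 1.11 CPM), and they had 407 and 3287 CPM of *Csn2*. The cell of pBrL-1 was of another kind, with 1740 CPM of *Dcn*, 16875 of the smooth muscle actin gene *Acta2*, 3104 of *Myh11*, 406 of *Krt14* and 213 of *Krt5*. It had 30.8 CPM of *Krt8*, 6.52 of *Epcam* and no read of *Cdh1*, *Prlr* or *Esr1*. This cell, with basal markers in a luminal gate, also held all of the *Bgn* and *Fmod* reads of its mouse (232 and 273 CPM in the cell). It gave 2937 of the 2938 *Dcn* reads of pBrL-1.

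Across virgin cells, the genes that varied most closely with *Dcn* were led by *Ptn*, which encodes the heparin-binding growth factor pleiotrophin. Pearson's r of log2(CPM + 1) was computed within each virgin mouse over 35 to 40 cells and averaged, for 9740 genes at 10 CPM or more in at least 5 virgin cells. The mean r with *Dcn* was 0.74 for *Ptn* (0.74 in vBrL, 0.92 in vBr53L, 0.56 in v53L). Next came *Cd200* (0.67), a surface glycoprotein of the immunoglobulin family, *Gpx3* (0.67), the secreted glutathione peroxidase, *Cdo1* (0.67), the cysteine dioxygenase, and *Cxcl15* (0.67), a chemokine. *Areg* (0.67), *Plac8* (0.66), *Slc7a2* (0.64), a transporter of cationic amino acids, *Cited1* (0.62) and *Capsl* (0.61) completed the first 10. The median over all genes was 0.056 and the 95th percentile 0.28. *Prlr* (0.60) and *Pgr* (0.60) ranked 14 and 15, *Hba-a1* (0.58) ranked 21 and *Esr1* (0.51) ranked 41. The cells of a mouse share a chip and its depth, and these values are descriptions.

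*Ptn* was carried by all 25 high *Dcn* cells, with a lowest value of 235 CPM and a median of 5098, and by 28 of the 89 others, with a median of 5.20. *Cd200* and *Gpx3* were each carried by 24 of the 25 high cells and by 25 and 21 of the others. *Cdo1*, *Cxcl15* and *Slc7a2* were each carried by 22 of the 25, and by 15, 17 and 19 of the others. Summed by mouse, *Ptn* had 915, 631 and 5847 CPM in vBrL, vBr53L and v53L and 5.09 to 92.1 in the pregnant mice. Like *Prlr*, *Ptn* was thus highest in v53L, where *Dcn* was lowest among the virgin mice. Of the first 10 genes, 8 were shared when Spearman's rho was used and 6 to 8 when a mouse was left out. *Prelp*, the only other member with enough cells, had a mean r of 0.24 with *Dcn* and ranked 827.

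Of the pathway lists, the proteases had a median sum of 103.7 CPM in the high virgin cells against 0 in the others, and the receptors 223 against 428 CPM. *Mmp14*, a membrane protease that cleaves matrix proteins, had a mean r of 0.43 and was carried by 14 of 25 high cells against 14 of 89 others. *Egfr* was carried by 1 against 20 cells, *Met* by 8 against 46 and *Tgfb2* by 5 against 34. Within mice their mean r with *Dcn* was weak, at -0.10, -0.08 and -0.13, beside a 5th percentile of -0.14 over all genes. *Tgfb3* had a mean r of -0.26. For the enzymes that build the chains, *Xylt1*, which starts a chain, was carried by 0 against 1 cells, *Chsy1*, which extends chondroitin, by 3 against 7, and *Dse*, which turns chondroitin into dermatan sulfate, by 2 against 15. The summed enzyme list (25 of 26 genes in the table) had medians of 146 CPM in the high cells and 100.6 in the others. By mouse the order was not the same, with 158 against 47.2 CPM in vBrL and 186 against 70.4 in v53L but 59.1 against 147.1 in vBr53L. The heparan sulfate proteoglycan *Sdc4* was carried by all 114 virgin cells, with medians of 12392 and 10458 CPM.

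In the tumor BrT1, *Dcn* was in every cell. All 47 cells had 155 to 11291 CPM, with a median of 4301, and the highest cell held 6.13% of the reads. The level was thus spread over the cells, in contrast to the virgin mice. The marker background also differed from that of the virgin high cells. *Vim* and *Fn1*, mesenchymal genes, were carried by 47 of 47 BrT1 cells, *Col1a2* by 42, *Pdgfra* by 34, *Col5a2* by 31, *Pdgfrb* by 11, *Col1a1* by 7 and *Col3a1* by 4. *Thy1*, *Dpt*, *Mfap5*, *Pi16* and *Fap* were carried by 0. *Krt8* was carried by 37 of 47 cells, *Epcam* by 6 and *Cdh1* by 0. At least 1 of the 10 fibroblast markers was carried by 46 cells and at least 3 by 10 cells, with a median of 2 per cell. The fibroblast list summed to a median of 379 CPM per cell, the mesenchymal list to 8997 and the luminal list to 464. The tumor gate used CD24 alone, and whether some BrT1 cells were stromal was not tested.

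Within BrT1, *Dcn* followed neither the fibroblast nor the mesenchymal markers closely. Over the 47 cells of this mouse and chip, Pearson's r of log2(CPM + 1) with *Dcn* was 0.10 for *Pdgfra*, -0.20 for *Col1a2*, -0.26 for *Col1a1* and -0.48 for *Pdgfrb*. It was -0.0036 for *Vim* and -0.11 for *Fn1*, and among luminal markers 0.38 for *Krt8*, 0.26 for *Krt18*, 0.14 for *Cldn3* and -0.19 for *Epcam*. BrT1 also held the other members at low levels, with *Prelp* carried by 10 cells, *Ogn* by 5 and *Bgn* by 3. *Prelp* and *Ogn* were in part in the same cells, 4 of the 5 *Ogn* cells carrying *Prelp*, with r = 0.58 and *Ogn* ranking 2 of 9007 genes for *Prelp*. The cell with the most *Dcn* (11291 CPM) had 506 CPM of *Prelp* and 161 of *Ogn*, and a cell with 228 CPM of *Dcn* had 495 CPM of *Prelp*.

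The other tumors had less *Dcn* than BrT1, and BrT2 and Br53T1 had none. BrT2 had *Dcn* in 0 of 37 cells and Br53T1 in 0 of 30, which allows shares of up to 8.11% and 10%. In Br53T2, 8 of 51 cells carried *Dcn* (15.7%, 7.02 to 28.6), with values of 36.9 to 2580 CPM, and the highest cell held 41.4% of the reads. A further 25 cells had *Dcn* reads at 0.348 to 5.18 CPM, and 18 had none. Without that cell the summed level fell from 87.5 to 52 CPM. Of these 8 cells, 7 carried *Krt14*, 7 *Acta2*, 8 *Cdh1* and 0 *Vim*. A cell with 75.6 CPM of *Dcn* had instead 2995 CPM of *Krt8* and 3152 of *Prlr*, and stayed under 10 CPM for *Krt14* and *Acta2*. A cell with 414 CPM of *Dcn* had 2016 CPM of *Prlr*, 290 of *Areg* and 31.6 of *Esr1* beside 3348 of *Acta2*, and 2 further cells had 70.6 and 70.7 CPM of *Pgr*. Over the 51 cells, r with *Dcn* was 0.37 for *Acta2* and -0.43 for *Krt8*. On the same chip, pBrL-2 had 0.026 CPM.

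The cells with 100 CPM or more of *Dcn* thus mostly carried hormone-sensing markers in virgin mice, and cells with *Dcn* carried mesenchymal markers in BrT1, and basal markers, in part beside hormone-sensing ones, in Br53T2. For tumors against the 5 *Brca1*-deficient luminal mice the fitted log2 fold change of *Dcn* was 1.87. The tumors ran from 0 to 4356 CPM and those luminal mice from 0.026 to 711, so the ranges overlapped. For *Brca1*-deficient against *Brca1* wild type luminal mice the fold change was 2.39. The wild type mice v53L and p53L had 176 and 0.851 CPM, and these ranges overlapped too.

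Over the 11 mice, the 5 genes whose summed log2(CPM + 1) was most like that of *Dcn* were *Slbp* (r = 0.88), a histone mRNA binding protein, *Polr2m* (0.87), a subunit associated with RNA polymerase II, *Syde2* (0.86), *Epdr1* (0.85) and *Khsrp* (0.84), a splicing and mRNA decay factor, among 10501 genes. *Slbp* had 88.3, 84.2 and 86.5 CPM in the virgin mice, 57.1 to 69.8 in the pregnant mice, and 130 in BrT1 against 40.4 to 75.1 in the other tumors. The range of *Slbp* was thus far smaller than that of *Dcn*. *Prlr* had r = 0.09 over the 11 mice and 0.81 without BrT1, and *Esr1* 0.21 and 0.66. The r with *Prlr* and *Esr1* was thus higher when BrT1 was left out, and no other mouse was left out in turn. *Prelp* had r = 0.35 with *Dcn*. With 11 mice that share chips and stages, these values are descriptions.

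*Bgn*, which encodes biglycan, the closest relative of decorin and a ligand of the receptors TLR2 and TLR4, had nearly all of its reads in the tumor Br53T2. It had 0 reads in all 114 virgin cells, which allows shares of up to 8.57%, 7.69% and 7.50% of the cells of vBrL, vBr53L and v53L. It had 3.38 CPM in pBrL-1 and at most 0.0218 in the other pregnant mice. Of the tumors, Br53T2 had 249 CPM, BrT1 4.43, BrT2 0.942 and Br53T1 none. Br53T2 was above every other mouse, and the other tumors overlapped the luminal mice. In edgeR's quasi-likelihood test with Benjamini-Hochberg adjustment, tumors against *Brca1*-deficient luminal mice gave a log2 fold change of 6.37 ± 2.82 (SE, adjusted p = 0.346, 4 against 5 mice). Without Br53T2 it was 1.24 (adjusted p = 0.891). The log2 fold change thus rested on Br53T2.

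Of the 7 members, 4 passed the low-count filter in this comparison (*Dcn*, *Bgn*, *Ogn* and *Prelp*), and *Lum*, *Fmod* and *Aspn* did not. None of the 3 that were tested was called at an adjusted p under 0.05, beside 0.609% of the 12978 genes tested (79), or 0.393% higher in tumors (51) and 0.216% lower (28). Scaled by library size alone, a setting chosen after seeing the data, 94 genes were higher and 30 lower.

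In Br53T2, *Bgn* was carried by 17 of 51 cells (33.3%, 20.8 to 47.9), at 14.6 to 1939 CPM with a median of 763. These cells had basal markers beside an epithelial cadherin. *Krt14* was carried by 17 of the 17, *Acta2* by 15 and *Cdh1* by 17, while *Krt8* was carried by 9. Over the 51 cells, r with *Bgn* was 0.78 for *Krt5*, the first of 8904 genes, 0.70 for *Acta2*, 0.68 for *Krt14* and -0.67 for *Krt18*, the last of the 8904. *Krt5*, *Acta2* and *Krt14* were carried by 16, 17 and 19 of the 20 cells with *Dcn* or *Bgn* and by 7, 9 and 14 of the 31 other cells. *Col1a1*, *Col1a2* and *Pdgfra* were each carried by 1 of the 20, *Thy1* by 2 and *Col3a1* by 0, against 0, 0, 1, 0 and 0 of the 31. *Vim* was carried by 8 of the 20 and 8 of the 31, and *Fn1* by 10 and 16. Only 5 of the 8 *Dcn* cells carried *Bgn*, and the r of the 2 genes was 0.15. The cell with the highest *Dcn* (2580 CPM) had 73.7 CPM of *Bgn*, and the cell with the highest *Bgn* (1939 CPM) had 888 CPM of *Dcn*.

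*Prelp*, whose basic end binds heparin and heparan sulfate and which is thought to link basement membranes to connective tissue, was detected in 9 of the 11 mice. The virgin mice vBrL, vBr53L and v53L had 5.06, 13.5 and 23.2 CPM, and the pregnant mice pBrL-1, pBrL-2, pBr53L and p53L had 0, 0.960, 4.83 and 0 CPM. Of the tumors, BrT2 had 167 CPM, Br53T2 42.3, BrT1 36 and Br53T1 0.783. The virgin values rested on single cells, with 100%, 83.2% and 89.5% of the *Prelp* reads of vBrL, vBr53L and v53L in the highest cell. Each virgin mouse was above each pregnant mouse, and 3 of the 4 tumors were above all luminal mice. The log2 fold change of tumors against *Brca1*-deficient luminal mice was 3.59 ± 1.58 (SE, edgeR adjusted p = 0.342). For pregnant against virgin mice it was -4.04 ± 2.55 (edgeR adjusted p = 0.685), so neither difference passed the threshold over the spread between mice.

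In BrT2, 19 of 37 cells carried it (51.4%, 34.4 to 68.1), at 12.2 to 1230 CPM with a median of 279. Of these, 17 carried *Krt8*, 17 *Epcam*, 12 *Vim* and 0 *Krt14*, which had no read in any BrT2 cell. Over the 37 cells, r with *Prelp* was -0.15 for *Krt8*, -0.29 for *Epcam* and 0.13 for *Vim*. In Br53T2, 12 of 51 cells carried it (23.5%, 12.8 to 37.5), of which 10 carried *Krt14*, 10 *Acta2* and 9 also *Bgn*. Over the cells of Br53T2 the gene most like *Prelp* was *Cnn1*, a smooth muscle calponin of basal cells (r = 0.69), and r was 0.52 with *Bgn*. In virgin mice 7 cells carried *Prelp*, 5 of them also *Dcn*. The highest of the 7, at 1038 CPM in v53L, had no *Dcn* read, 9.92 CPM of *Prlr* and 13117 CPM of *Csn3*. *Prelp* shares 350 of its 3615 exon bases with *Gm15851* on the other strand, and whether counting used strand is not given in the sources used here.

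**Figure D5:**
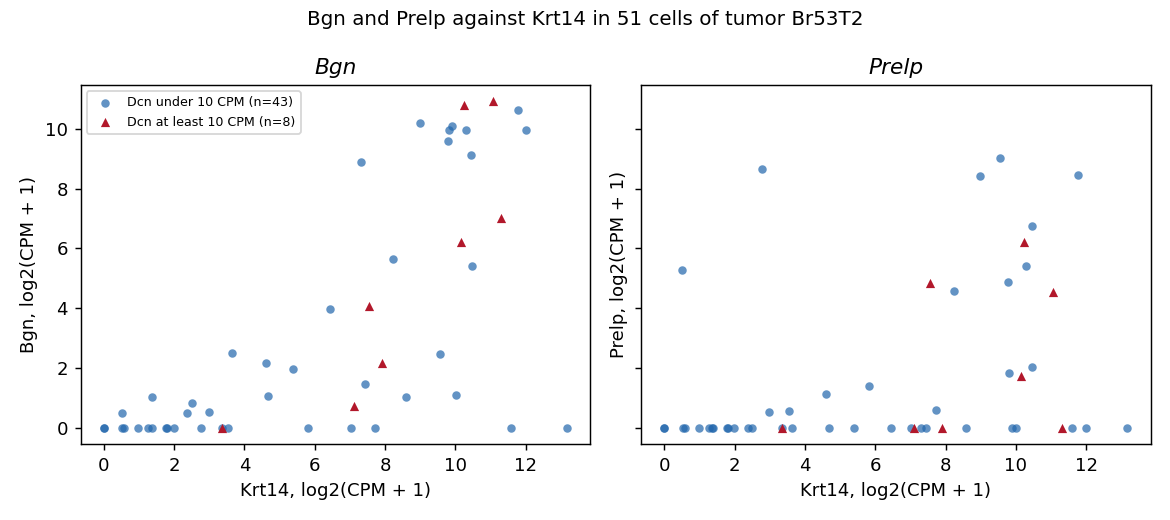
*Bgn* (left panel) and *Prelp* (right panel) against *Krt14* in the 51 cells of Br53T2, all as log2(CPM + 1), with red triangles for the 8 cells that carry *Dcn* and blue circles for the 43 others. All 17 cells with *Bgn* of at least 10 CPM also carry *Krt14*, and 10 of the 12 cells with *Prelp* do.

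*Fmod*, which like lumican guides the early growth of collagen fibrils, was found in 5 cells of the series. The cell of pBrL-1 with basal markers had 273 CPM, and 3 cells of Br53T2 had 29.3, 59.1 and 231 CPM. A cell of BrT2 had 1 read. All 4 cells at 10 CPM or more also carried *Bgn*, *Krt14* and *Acta2*, and the 3 cells of Br53T2 also carried *Prelp*. The promoters of these 3 genes printed above shared none of the motifs searched. *Lum*, the neighbour of *Dcn*, had no read in any cell, which allows a share of cells with a read of up to 4.23% in pBrL-1, the mouse with the most cells, and of up to 10% in Br53T1.

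*Aspn*, which encodes asporin, a member that binds TGF-beta and lacks a sugar chain, was found mainly in pregnant mice. It had 0.691, 0.467, 1.81 and 0.240 CPM in pBrL-1, pBrL-2, pBr53L and p53L. The virgin mice had 0 reads in 114 cells, and the tumors 0 to 0.0911 CPM. The pregnant mice were thus above all others, at levels of about 1 CPM or less in 3 of the 4. The 309 reads of the pregnant mice came from 8 of 198 cells, and 6 of these were at 10 CPM or more, at 10.8 to 133 CPM. All 6 carried *Krt8*, *Epcam*, *Prlr* and *Csn2*. The adjusted p for pregnant against virgin mice was 0.470 in edgeR. In this comparison 4 members passed the filter (*Dcn*, *Ogn*, *Aspn*, *Prelp*) and none of the 3 tested was called, beside 0.0159% of the 12615 genes (2, both lower in pregnant mice).

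*Ogn*, the gene of osteoglycin or mimecan, a small keratan sulfate proteoglycan, had a low level in nearly all mice. The virgin mice vBrL, vBr53L and v53L had 1.5, 2.76 and 0 CPM, and the pregnant mice pBrL-1, pBrL-2, pBr53L and p53L had 0.0173, 2.96, 0.0596 and 1.66. The tumors BrT1, BrT2, Br53T1 and Br53T2 had 8.31, 2.64, 1.11 and 0.154. These ranges overlapped. Over all mice 15 cells carried it, 5 of them in BrT1. The log2 fold change was 0.93 ± 1.56 for tumors (edgeR adjusted p = 0.849) and 0.02 ± 3.48 for pregnancy (edgeR adjusted p = 0.999). *Ogn* lies within *Cenpp* on the other strand without sharing exon bases, and *Aspn* shares 7 exon bases with it.

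For *Brca1*-deficient (5 mice) against *Brca1* wild type (2 mice) luminal cells, with stage as a covariate, 4 members passed the filter and none of *Ogn*, *Aspn* and *Prelp* was called. Their adjusted p in edgeR was 0.978, 0.928 and 0.982. The background was 0% of 13709 genes in edgeR, with 818 genes at an unadjusted p under 0.05, while DESeq2 called 514 genes.

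Per base of transcript, the family had different leaders in different mice. Of the summed RPKM (CPM per kb of exon) of the 7 members and the 11 other SLRP genes in the table, *Dcn* made 98.4% in vBrL, 92.7% in vBr53L, 82.4% in v53L, 53.3% in pBrL-1 and 97.6% in BrT1. *Prelp* (56.7%) and *Chad* (39.9%), the gene of chondroadherin, led in BrT2, *Chadl* (35.4%) and *Chad* (31.5%) in Br53T1, and *Bgn* (54.9%) and *Dcn* (20.2%) in Br53T2. In pBrL-2 *Ogn* (43.5%), in pBr53L *Prelp* (30.4%) and in p53L *Tsku* (51.1%) led, at totals of 1.83 to 4.39 RPKM. No other SLRP gene than *Dcn*, *Bgn*, *Prelp* or *Chad* passed 50 CPM in any mouse. Of the 11 other SLRP genes, 4 were tested in tumors and 0 called, beside 0.609% of all genes. Their median log2 fold change was 0.41, beside 0.06 over all genes.

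Among the genes that act on or with SLRPs, 3 were called, all higher in tumors than in *Brca1*-deficient luminal mice in edgeR. *Chsy1*, a chondroitin synthase, had 9.57 to 37.7 CPM in the 5 luminal mice and 119, 291, 72.9 and 224 CPM in BrT1, BrT2, Br53T1 and Br53T2 (log2 fold change 2.82 ± 0.53, SE, adjusted p = 0.0471). *Lrp1*, an endocytic receptor that takes up decorin and biglycan, had 0.208 to 2.61 CPM in luminal mice and 100.5, 17.6, 48.3 and 31.9 in the tumors (5.33 ± 0.93, adjusted p = 0.0379). *Mmp2*, a gelatinase that cleaves decorin, had 0 to 0.286 CPM in luminal mice and 178, 169, 62.4 and 11.7 in the tumors (10.71 ± 1.74, adjusted p = 0.0282). The tumors and the luminal mice did not overlap for these 3 genes, which were picked by their calls on the same values. The lack of overlap is therefore no further support, and the share of all genes without overlap was not counted. The calls depended on single mice and settings, *Chsy1* being called in 7 of 16 alternatives, *Lrp1* in 8 and *Mmp2* in 11. *Chsy1* stayed called only without Br53T1 among the mice left out in turn, with an adjusted p of up to 0.121 (without pBrL-1). *Lrp1* stayed called without BrT2 or Br53T2, with an adjusted p of up to 0.0860 (without pBr53L). *Mmp2* lost its call without BrT2, pBr53L, pBrL-1 or vBr53L, with an adjusted p of up to 0.0733 (without pBr53L). All 3 lost it against the pregnant mice alone.

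The lists are given beside the 0.609% of all genes called in tumors, 0.393% being higher. Of the chain enzymes, 1 of 20 tested was called in tumors (median log2 fold change 1.21), of the receptors 1 of 9 (0.72), of the proteases 1 of 5 (2.60), of the collagen and fibril partners 0 of 9 (6.80), of the TGF-beta and BMP genes 0 of 14 (0.94) and of the other proteoglycan cores 0 of 12 (1.65), beside a median of 0.06 over all genes. Summed, the collagen partners were at 7541 CPM for BrT1, 6385 for BrT2, 12.6 for Br53T1 and 479 for Br53T2, and at 0.0441 to 71.9 CPM in the luminal mice. *Dcn* was thus at 4356 CPM in one of the tumors with high collagen partners and at 0 in the other. For pregnancy, where 0.0159% of all genes were called, none of these lists had a gene called. The medians were -0.03 for 18 chain enzymes, -0.60 for 9 receptors, -4.12 for 4 proteases and -0.28 for 12 other proteoglycan cores. They were 3.604 for 2 collagen and fibril partners and 0.40 for 13 TGF-beta and BMP genes, beside 0.12 over all genes.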

How the data were processed

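Single luminal and tumor cells were sorted, captured on Fluidigm C1 chips, amplified with the SMARTer kit and sequenced after Nextera XT preparation. Per the study's methods and the labels, the authors trimmed reads with sickle and Trim Galore (0.4.1), aligned them to mm10 with STAR (2.5.3a) and deposited unnormalized read counts for each gene in each cell, made with Subread (1.5.3), without molecular identifiers. The annotation and the strand setting of the counting are not given in the sources used here. Doublets had been looked for under the microscope and were not called again. All 477 cells and 21004 genes were used.

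Each cell is a sample, but the mouse is the replicate, so the cells of a mouse were summed, giving 11 columns. With 1 mouse in nearly all groups, p-values measure the spread between mice that also differ in chip and genotype. Genes passing edgeR's low-count filter were tested with edgeR (4.0.16, TMM, quasi-likelihood test, R 4.3.3) over the whole table and Benjamini-Hochberg adjusted at 0.05, for tumors against *Brca1*-deficient luminal mice, pregnant against virgin luminal mice with genotype as a covariate, and *Brca1*-deficient against *Brca1* wild type luminal mice with stage as a covariate. The SE of an edgeR fold change was computed from the fold change and the F statistic of its test. DESeq2 (1.42.0) was an alternative. The scripts were tested on simulated data.

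Cells were described on CPM, with log2(CPM + 1) for correlations, and shares carry exact 95% binomial intervals. A count of 0 was read as allowing up to 3 cells. The 7 members and all gene lists were chosen with earlier results of these data known. Named genes were the members, genes of the lists, the 10 genes with the highest mean within-mouse correlation with *Dcn* and the 5 with the highest correlation over mice. The 100 CPM level for *Dcn* and the cell sets by *Prlr* and *Esr1* were chosen after the values were seen.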

Additional observations from a re-analysis of the deposited data

Results flagged for a closer look

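For *Bgn* and *Fmod*, 1 mouse stood apart from the others of its group by Dixon's 95% critical value for the gap to the nearest value. Chance flags about 1 in 20 groups where values are normally spread, and the groups of luminal mice share animals. Of 21 groups looked at, 8 were flagged, those of *Dcn* included. Where only 1 mouse has reads, the gap is the whole range and the flag was fixed in advance. This holds for *Fmod* of pBrL-1 in both of its groups and for *Bgn* among the *Brca1*-deficient luminal mice. Among the 4 pregnant mice, pBrL-1 stood apart for *Bgn* (3.38 CPM) and *Fmod* (3.97 CPM), and it did so at the same values among the 5 *Brca1*-deficient luminal mice. Among the 4 tumors, Br53T2 stood apart for *Bgn* (249 CPM, 17 of 51 cells) and for *Fmod* (6.35 CPM, 3 cells).

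*Dcn* was chosen for its values in these mice, so its gaps are a description and are not set against chance. The mice farthest from their groups were pBrL-1 among the pregnant mice (25.4 CPM) and BrT1 among the tumors (4356 CPM). All *Bgn* and *Fmod* reads and 2937 of 2938 *Dcn* reads of pBrL-1 came from 1 cell, with 16875 CPM of *Acta2*.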

How the results depend on the processing

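No paired analysis was possible by replicate number because these numbers only name the cells of a group. By chip, SC7 and SC9 each paired a virgin with a pregnant mouse of the same genotype, and the fit with the chip as a block was run for pregnancy.

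The number of genes called was 79 for tumors (51 higher and 28 lower). It was 213 against all 7 luminal mice, 808 with DESeq2, 129 without the low-count filter, 44 against the pregnant *Brca1*-deficient mice alone, 124 (94 higher and 30 lower) when scaled by library size alone, a setting chosen after seeing the data, and 11 to 94 when a mouse was left out (without BrT1 50, BrT2 44, pBrL-2 29, pBr53L 19 and pBrL-1 11). For pregnancy it was 2, then 967 with DESeq2, 366 without the filter, 42 with the chip as a block, 17 without the genotype covariate and 0 to 4 leaving out a mouse. For *Brca1* status it was 0, then 514 with DESeq2, 10 without the filter and 0 to 127 leaving out a mouse (127 without p53L). The cause of these differences was not tested.

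Scaling by library size alone moved the median log2 fold change of all genes for tumors from 0.06 to 0.20. *Ogn* and *Prelp* were not called for tumors under the alternatives run, nor was *Bgn* under the 14 that gave it an adjusted p, since DESeq2 gave none and *Bgn* had no value without pBrL-1. The log2 fold change for tumors ran from 1.24 (without Br53T2) to 6.78 for *Bgn*, 2.21 to 4.42 for *Prelp* and -0.19 to 1.32 for *Ogn* when a mouse was left out (for *Bgn*, any but pBrL-1), *Ogn* changing sign without BrT1. For *Prelp* it ran from -8.95 to -2.63 for pregnancy and from -1.42 to 10.28 for *Brca1* status, where it changed sign without p53L (-1.42) and without the covariate (-1.35). Leaving out a mouse gave 2.36 to 3.08 for *Chsy1*, 4.75 to 5.92 for *Lrp1* and 10.28 to 14.39 for *Mmp2*. Of the virgin cells, 77 of 114 had any *Dcn* read (34 in vBrL, 31 in vBr53L), 46 had 10 CPM and 25 had 100 CPM (6 in vBr53L). Of the 10 genes most like *Dcn*, 6 to 8 were shared when a mouse was left out. The bounds given with shares of 0 follow from the number of cells and do not cover transcripts missed at the depth of a cell.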

Other observations

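Cartilage proteoglycan genes outside the members were found in some tumors. *Acan*, the large cartilage proteoglycan aggrecan, had 88.5 CPM in BrT1 and 53.4 in BrT2, 0.565 in Br53T1, 0 in Br53T2 and at most 0.0248 in the luminal mice. *Chad*, a leucine-rich cartilage protein, had 54.5 CPM in BrT2 and 6.80 in Br53T1 and 0 in the other 9 mice. In BrT2 the r of *Prelp* and *Chad* over 37 cells was 0.34 (rank 84 of 7918 genes).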
